A study of Mus musculus with 9 samples.

Results

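The hair keratins and the keratin-associated proteins (KAPs) of mouse ear skin were followed across 9 RNA-seq libraries. The members were chosen by gene symbol, as every gene named Krt25 to Krt28, Krt31 to Krt40, Krt71 to Krt75 or Krt81 to Krt87, or with a symbol beginning with Krtap, a rule that holds no measured value. This gave 82 of the 55401 genes in the count matrix, namely 24 hair keratins and 58 KAPs. The ears came from C57 mice in 3 groups of 3 libraries: controls given absolute ethanol, mice given MC903, and mice given MC903 together with paeonol at 200 mg/kg. MC903 (calcipotriol) is a vitamin D analogue that is painted on mouse ears to provoke a dermatitis, and paeonol is a phenol from peony root bark. The labels give no age, sex, route, treatment length or hair cycle stage, no group that received paeonol alone, and no statement on whether libraries of a group came from separate mice, so the p-values measure the spread between these libraries.

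Hair is built from keratin filaments embedded in a matrix of KAPs. A type I and a type II keratin pair to form each filament, and the cysteine-rich KAPs cross-link the filaments through disulfide bonds. Each layer of the follicle uses its own keratins: Krt25 to Krt28 with Krt71 to Krt74 in the inner root sheath that moulds the growing shaft, Krt75 in the companion layer around that sheath, and the others in the cuticle and cortex of the shaft itself, with Krt36 and Krt84 known also from other hard epithelia such as the tongue papillae. The sheath and most shaft genes are transcribed while a follicle is in its growth phase.

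Library totals lay between 54264605 and 57745225 counts. All 24 hair keratins and 53 of the 58 KAPs had a count in at least 1 library; Krtap4-13, Krtap6-3, Krtap9-5, Krtap20-2 and Krtap27-1 had none. After the filter on low counts, 22 hair keratins and 25 KAPs were tested among 21925 genes, and the remaining members are described by their values only. Levels are counts per 1000000 (CPM) on library sizes adjusted by the trimmed mean of M-values; a change is a log2 ratio with its standard error (SE) from edgeR's quasi-likelihood test, and it was called where the p adjusted by Benjamini-Hochberg over all tested genes was under 0.05. In bulk tissue, fewer cells of a type and less RNA per cell cannot be told apart.

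The hair keratins lie in 2 clusters of GRCm38, 13 type I genes on chromosome 11 and 11 type II genes on chromosome 15. The promoters of the 3 members with the highest mean CPM are shown because these genes carry most hair keratin counts. They are the 250 bases before the transcription start from RefSeq (GRCm38.p6), 5′ to 3′ on the minus strand of chr11:100105627-100105876 for Krt36, chr15:101532821-101533070 for Krt84 and chr15:101573905-101574154 for Krt75. Capitals mark matches, on either strand, to the strings TATAAA (the TATA box) and TTTATNG (a string of the type bound by HOX proteins); CTTTGAA (the LEF1/TCF string) was also searched.
Krt36: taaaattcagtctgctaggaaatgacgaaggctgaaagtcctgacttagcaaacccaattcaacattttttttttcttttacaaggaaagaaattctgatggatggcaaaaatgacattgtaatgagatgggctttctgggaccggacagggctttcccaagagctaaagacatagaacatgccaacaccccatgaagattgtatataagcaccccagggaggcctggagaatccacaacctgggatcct
Krt84: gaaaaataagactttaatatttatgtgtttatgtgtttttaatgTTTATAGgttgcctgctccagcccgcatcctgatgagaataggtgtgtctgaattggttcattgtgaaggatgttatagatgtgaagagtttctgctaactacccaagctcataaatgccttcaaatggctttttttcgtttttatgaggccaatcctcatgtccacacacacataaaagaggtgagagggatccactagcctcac
Krt75: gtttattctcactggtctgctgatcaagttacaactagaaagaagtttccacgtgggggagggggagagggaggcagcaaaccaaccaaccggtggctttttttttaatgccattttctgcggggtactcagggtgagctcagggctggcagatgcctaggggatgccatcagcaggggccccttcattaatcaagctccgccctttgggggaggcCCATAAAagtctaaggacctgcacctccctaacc
In Krt84 a TATAAA match and a TTTATNG match overlap, Krt75 holds 1 TTTATNG match close to its start, and none of the 3 strings is in the Krt36 window. Promoters of 68 members were in the RefSeq table, taken as windows of 300 bases with 50 bases after the start. TATAAA was found in 55 of them (80.9%), against 13.6% of all 32851 promoters. CTTTGAA was found in 15 (22.1%, against 5.1% of all promoters) and TTTATNG in 18 (26.5%, against 10.9%). A match is a description of the letters and not a measured binding site.

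The KAPs lie on chromosome 11 (23 genes), 16 (25 genes), 7 (5 genes), 10 (3 genes) and 1 (2 genes). By the composition of their coding sequences, 21 were ultra-high-sulfur (at least 30% cysteine codons). Of the others, 15 were high glycine-tyrosine (at least 35% glycine and tyrosine codons together). A further 21 were grouped as high-sulfur without a cysteine threshold, with 4.0% to 29.8% cysteine codons, and 1 had no coding sequence. The 3 with the highest mean CPM were high-sulfur genes of the Krtap3 family, which sit side by side on chromosome 11. Their first 180 coding bases are shown because near-identical copies limit what reads can separate; capitals mark the 24 positions at which the sequences differ.
Krtap3-1: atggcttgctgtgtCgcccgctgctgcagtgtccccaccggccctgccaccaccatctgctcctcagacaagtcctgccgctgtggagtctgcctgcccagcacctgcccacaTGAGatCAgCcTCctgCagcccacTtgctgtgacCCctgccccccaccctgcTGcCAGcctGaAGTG
Krtap3-2: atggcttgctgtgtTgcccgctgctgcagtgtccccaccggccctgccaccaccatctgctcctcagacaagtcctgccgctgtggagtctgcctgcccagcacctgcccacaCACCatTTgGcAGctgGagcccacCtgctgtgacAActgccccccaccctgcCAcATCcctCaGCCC
Krtap3-3: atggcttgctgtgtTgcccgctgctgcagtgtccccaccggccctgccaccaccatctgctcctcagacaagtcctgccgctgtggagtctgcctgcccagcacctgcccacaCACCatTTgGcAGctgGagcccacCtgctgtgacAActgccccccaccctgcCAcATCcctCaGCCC
Krtap3-2 and Krtap3-3 had identical coding sequences over all 297 bases, and Krtap3-1 matched both at 82.2% of aligned positions. Of all 50-base stretches in the transcripts, 28.9% for Krtap3-2, 41.3% for Krtap3-3 and 8.8% for Krtap3-1 also occurred in transcripts of another gene, so the split of counts between Krtap3-2 and Krtap3-3 is uncertain. Over 10% of such stretches were shared for 34 of the 82 members.

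Of the 22 tested hair keratins, Krt36, Krt84 and Krt75 rose against control and Krt31, Krt32 and Krt33a fell; of the 25 tested KAPs 9 fell and none rose (1 rose at an unadjusted p under 0.05, and DESeq2 called 2 higher and 9 lower). Among all tested genes 46.8% were called in this comparison, 23% higher and 23.8% lower, so 6 of 22 keratins and 9 of 25 KAPs called in either direction both lie below the background share of calls, and the 9 KAP calls were all in the lower direction. Median log2 changes were -1.64 over the tested keratins and -2.07 over the tested KAPs, beside -0.0155 over all genes (-0.21 when libraries are scaled by their totals alone, where 32% of called genes are higher in place of 49.2%); 5 KAPs were at 0 in every MC903 library, and with these at their bounds the KAP median was -1.89. Those 5 KAPs passed the filter on low counts only through control and paeonol libraries, so a lower value with MC903 was fixed for them in advance. Krtap10-10, Krtap26-1 and Krtap28-13 held at most 4 counts in any MC903 library, and the hair keratin Krt33a at most 9. Being under the minimum count of 10 there, these called genes too passed only through the other groups, which favoured a lower value. The number of KAPs called was 5, 4 and 5 without MC903 library 1, 2 and 3 and 4 with no filter on low counts, and 3 hair keratins were called without MC903 library 1.

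With paeonol added to MC903, Krt31 and Krt32 were higher and Krt75 was lower than with MC903 alone, and Krtap3-2 and Krtap10-10 were higher. The background share in this comparison was 29.7%, with 15.3% of genes higher and 14.3% lower, so 3 of 22 keratins and 2 of 25 KAPs lie below it. Median log2 differences were 1.37 over the keratins and 1.65 over the KAPs, beside 0.0024 over all genes. With Krtap16-1 and Krtap17-1, at 0 in every MC903 library, placed at their bounds, the KAP median was 1.63. Krtap5-5, Krtap10-4 and Krtap12-1 were also at 0 there, but their paeonol means lay under the floor of 0.225 CPM, which leaves no bound. They kept their fitted values, so 1.63 is not corrected for them. Tested KAPs at 0 in every MC903 library passed the filter only through the other groups, so they could not come out as lower with paeonol. Krtap10-10, with at most 2 counts in any MC903 library, also passed it only through the other groups, which favoured a higher value with paeonol. The number of KAPs called was 7 with DESeq2 and without paeonol library 1, 4 without control library 2, 1 without MC903 library 1 or 2 or paeonol library 3, and 0 without MC903 library 3. This comparison and the preceding one share the MC903 libraries.

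Against control, ears given MC903 and paeonol had higher Krt36, Krt84, Krt75, Krtap3-1 and Krtap3-3, and lower Krt32 and Krtap10-10. Of all genes 30.9% were called, 16.3% higher and 14.5% lower, again above the 4 of 22 keratins and 3 of 25 KAPs. Median log2 differences were -0.13 over the keratins and -1 over the KAPs, beside -0.0347 over all genes (-0.2 with scaling by totals alone, where 28.7% of called genes are higher in place of 52.9%). The 3 KAP calls became 0 without control library 1 and 1 without paeonol library 3; the 4 hair keratin calls became 2 without control library 1 or 3 or paeonol library 2 or 3.

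Krt36, a type I hard keratin (chr11:100102007-100105626), had the largest log2 rise with MC903 against control of any tested member. Its levels were 1.22, 11.3 and 0.997 CPM in control libraries 1 to 3, 621, 327 and 150 CPM in the MC903 libraries, and 262, 116 and 638 CPM in the paeonol libraries. Every treated library lay above every control, and the MC903 and paeonol libraries overlapped. Means were 4.49 ± 5.86 CPM (SD, n = 3) in controls, 366 ± 238 with MC903 and 338 ± 269 with MC903 and paeonol. The log2 change was 6.35 ± 1.34 (SE) with MC903 against control (edgeR adjusted p = 0.0084) and 6.23 ± 1.34 with MC903 and paeonol against control (adjusted p = 0.0142). Between paeonol and MC903 alone the log2 difference was -0.11 ± 1.04 (edgeR adjusted p = 0.954), an error wide enough to hide a change of 2-fold in either direction. The MC903 call held without any single library, with adjusted p no higher than 0.0307.

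Krt84, a type II hard keratin (chr15:101525026-101532820), was already among the leading members in controls. Control libraries read 13.4, 52.2 and 21.01 CPM, MC903 libraries 341, 124 and 60.5 CPM, and paeonol libraries 334, 271 and 680 CPM. The lowest MC903 library stood just above the highest control, while the paeonol libraries were all far above the controls and overlapped MC903. The log2 change was 2.60 ± 0.85 with MC903 (edgeR adjusted p = 0.0461), 3.89 ± 0.90 with MC903 and paeonol against control (adjusted p = 0.019) and 1.29 ± 0.81 between paeonol and MC903 (adjusted p = 0.301). The MC903 call ended without control library 1 (adjusted p = 0.126) or 3 (0.133), MC903 library 1 (0.131) or 2 (0.0693), or paeonol library 1 (0.0723), 2 (0.0627) or 3 (0.0587), and the paeonol call against control ended without control library 1 (0.0604) or 3 (0.0728) or paeonol library 3 (0.0566). With the library number as a block both calls ended (0.137 and 0.0666). The MC903 call also ended with no filter on low counts (0.0731), scaling by totals alone (0.0547) and only the 2 groups compared (0.087).

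Krt36 and Krt84 were high and low in the same MC903 libraries, with library 1 highest and library 3 lowest for both, and paeonol library 3 was the highest of its group for both. Per kilobase of exon, Krt36 was the most abundant member in MC903 ears at 219 CPM per kb, followed by Krt84 at 66.3 and Krt75 at 65.5. In controls the order was Krtap3-2 (11.96 CPM per kb), Krt84 (10.9) and Krt75 (10.02), with Krt36 at 2.69.

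Krt75, the type II keratin of the companion layer (chr15:101563345-101573904), changed both with MC903 and with paeonol added to it. Controls read 35.6, 32.4 and 30.2 CPM, MC903 libraries 178, 207 and 257 CPM, and paeonol libraries 41.1, 64.8 and 101 CPM. The 3 groups did not overlap, and the paeonol libraries lay between the others. Krt75 rose by 2.71 ± 0.33 on the log2 scale with MC903 (edgeR adjusted p = 0.000431). It was lower by a log2 difference of -1.63 ± 0.32 with paeonol added (edgeR adjusted p = 0.00772), and still higher than control by 1.08 ± 0.32 (adjusted p = 0.0391). The first 2 calls held without any single library; the third ended without control library 1 (adjusted p = 0.0847), 2 (0.11) or 3 (0.12), MC903 library 1 (0.0517) or 2 (0.0614), or paeonol library 2 (0.079) or 3 (0.065). Without paeonol library 3 the log2 difference from control was 0.69. The third call also ended with no filter on low counts (adjusted p = 0.0781) and with the library number as a block (0.0517). Scaling by totals alone (0.0544) and a fit of only the 2 groups compared (0.0595) ended it too. A gene on the opposite strand that overlaps its exons, Gm44460, had no count in any library.

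Together Krt36, Krt84 and Krt75 made up 61.1% to 84.8% of the summed hair keratin CPM in control libraries, 97.5% to 98.9% in MC903 libraries and 89.7% to 99.1% in paeonol libraries. Summed over all 24 hair keratins, the level was 70.1, 157 and 61.5 CPM in controls, 1150, 674 and 479 CPM with MC903, and 643, 503 and 1440 CPM with MC903 and paeonol. Without these 3 genes it was 20, 61 and 9.36 CPM in controls, 12.9, 15.6 and 11.7 CPM with MC903, and 6.09, 51.8 and 24.9 CPM with paeonol. The family total separated treated from control libraries, and the total of the other 21 did not.

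**Figure D1:**
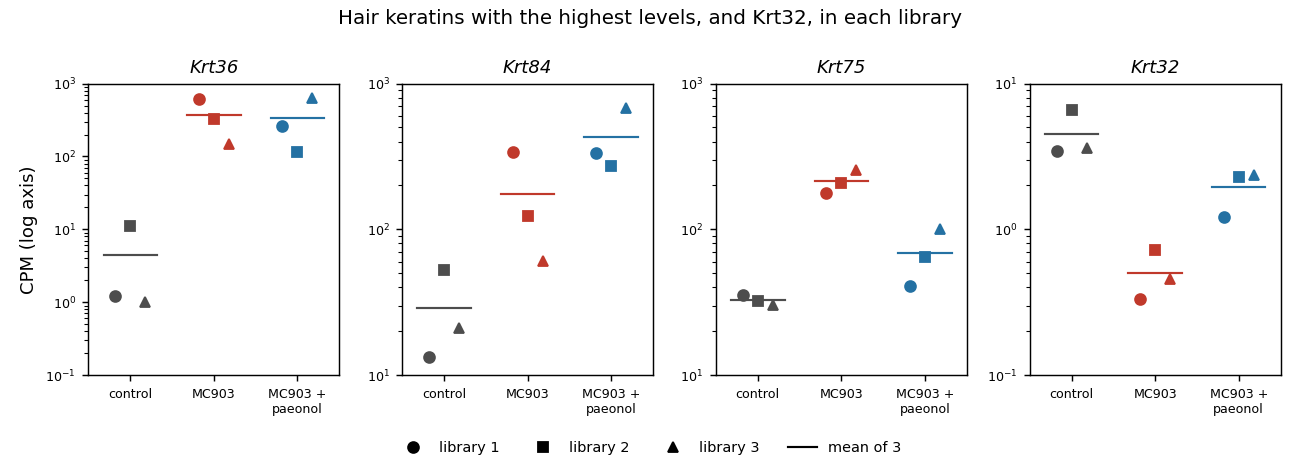
CPM of Krt36, Krt84, Krt75 and Krt32 in each of the 9 libraries (points, log axis; shape gives the library number) with the mean of each group of 3 (line). All treated libraries lie above all controls for Krt36, Krt84 and Krt75, and below all controls for Krt32.

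The inner root sheath keratins differed more between libraries of a group than between groups. Their summed level over 8 genes was 6.24, 34.4 and 4.26 CPM in controls, 10.9, 11.3 and 8.50 CPM with MC903, and 3.00, 34.2 and 7.46 CPM with paeonol. Control library 2 and paeonol library 2 stood above all others, and the 3 MC903 libraries lay close together. Krt71, a type II sheath keratin, read 10.2 CPM in control library 2 and 11.4 CPM in paeonol library 2, and between 0.490 and 2.36 CPM in the other 7. Its type I partner gene Krt25 read 10.06 and 9.997 CPM in those libraries and 0.300 to 4.71 CPM elsewhere, and Krt73 read 5.63 and 5.85 CPM against 0.512 to 2.60 CPM. Krt72 and Krt74 did not follow this pattern, and Krt28 followed it only in part. Krt28 was highest of all libraries in paeonol library 2 (3.855 CPM), and control library 2 (2.44 CPM) was its highest control. MC903 library 1 (2.92 CPM) lay above that control. Krt72 read 0.037 CPM in paeonol library 2, and Krt74 was highest in control library 1 (0.464 CPM).

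Of the 7 tested sheath keratins (Krt25 to Krt28, Krt71, Krt73 and Krt74) none was called in any of the 3 comparisons, with 0 at an unadjusted p under 0.05 and 0 by DESeq2, and Krt72 was not tested. Log2 changes with MC903 ran from -3.18 ± 1.60 for Krt26 to 0.87 ± 0.63 for Krt28. Krt28 was called without control library 2 (log2 1.71 ± 0.59, adjusted p = 0.0394).

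The cortex and cuticle keratins other than Krt36 and Krt84 had a lower summed level in MC903 ears, with few single genes called. The sum over 13 genes was 13.7, 26.7 and 5.10 CPM in controls, 2.07, 4.29 and 3.25 CPM with MC903, and 3.09, 17.6 and 17.5 CPM with paeonol. Every MC903 library lay below every control, and the paeonol libraries were split, with library 1 at the MC903 level and the others within the control range. Of the 12 tested, 3 fell with MC903, a share near the 23.8% of all genes called lower.

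Krt32, a type I keratin of the shaft cuticle (chr11:100080848-100088226), fell by 3.17 on the log2 scale (SE 0.40) with MC903, and its edgeR adjusted p of 6.37e-05 was the lowest of any member. It read 3.43, 6.59 and 3.6 CPM in controls, 0.333, 0.721 and 0.454 CPM with MC903, and 1.22, 2.27 and 2.38 CPM with paeonol, with no overlap between the 3 groups. With paeonol it was higher than with MC903 alone by 1.95 ± 0.40 (edgeR adjusted p = 0.00323) and lower than control by a log2 difference of -1.22 ± 0.37 (adjusted p = 0.026). The last call ended without control library 2 (adjusted p = 0.131) or paeonol library 1 (0.087) or 2 (0.0507), and the others held without any single library. A gene on the opposite strand, Gm11571, overlaps its exons; that gene held at most 12 counts in any library.

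Krt31 and Krt33a, type I keratins of the cortex, were at or near the floor of 12 counts per library in MC903 ears. Krt31 read 1.44, 2.21 and 0.321 CPM in controls, 0.118, 0.222 and 0.200 CPM with MC903, and 0.300, 2.60 and 1.34 CPM with paeonol. All MC903 libraries lay under all others. Its log2 change was -2.86 ± 0.87 with MC903 (edgeR adjusted p = 0.021; ratio 0.136, 95% counting interval 0.0504 to 0.286) and 2.96 ± 0.87 with paeonol against MC903 (adjusted p = 0.0284). Both calls were fragile: the first ended without control library 2 (adjusted p = 0.0632) or MC903 library 1 (0.0767), 2 (0.0577) or 3 (0.067), and the second ended in 5 of 9 runs that left out 1 library, with adjusted p up to 0.0964.

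Krt33a read 1.39, 1.11 and 0.135 CPM in controls, 0, 0.111 and 0.163 CPM with MC903 and 0.124, 0.646 and 0.709 CPM with paeonol. Control library 3 lay inside the MC903 range. The change with MC903 was called (log2 -3.22 ± 1.08, edgeR adjusted p = 0.03; ratio 0.104, 95% counting interval 0.0289 to 0.307), and it ended in 4 of 9 runs that left out 1 library (adjusted p up to 0.0947). Transcripts of Krt31 and Krt33a share 28.1% and 17.8% of their 50-base stretches with other genes, mainly Krt34.

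Other shaft keratins had wide errors. Krt35, a type I keratin of the forming shaft, read 6.59 CPM in control library 2 and 5.24 CPM in paeonol library 2. It read at most 0.997 CPM in the other libraries. The summed sheath keratins were high in the same 2 libraries. Krt34 of the cortex read 1.04, 0.623 and 0 CPM in controls, 0.450, 0.573 and 0.508 CPM with MC903 and 0.759, 2.66 and 4.99 CPM with paeonol (log2 2.45 ± 1.08 between paeonol and MC903, edgeR adjusted p = 0.132). That difference was called with only the 2 groups compared (edgeR adjusted p = 0.0186) and without control library 3 (0.0124). The type II cortex keratins Krt81, Krt83 and Krt86 were at 0 in control library 3, between 0.640 and 1.61 CPM in the other controls, and at most 0.610 CPM with MC903. Krt87 came closest to a call with MC903 (log2 -2.39 ± 0.93, edgeR adjusted p = 0.063). DESeq2 called it lower (adjusted p = 0.0105), as did edgeR with scaling by totals alone (0.0456) or only the 2 groups compared (0.0293). By edgeR it was also called without control library 3 (0.0311) or paeonol library 1 (0.0199). Krt33b, Krt39 and Krt82 were also tested and not called, and Krt40 was not tested, with 0.673 CPM in control library 2 as its highest value.

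**Figure D2:**
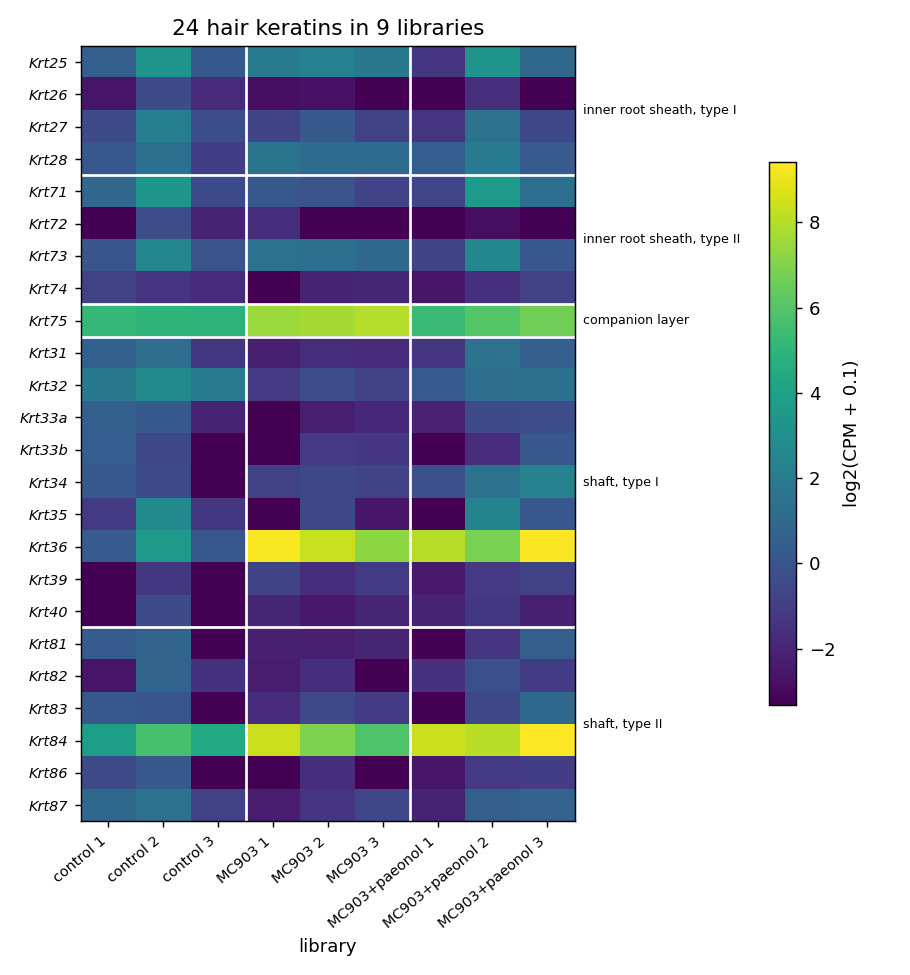
Level of each of the 24 hair keratins (rows, grouped by follicle layer) in each of the 9 libraries (columns), as log2(CPM + 0.1). Krt36, Krt84 and Krt75 are bright in treated libraries. Krt25, Krt26, Krt27, Krt71, Krt73 and Krt35 are brightest in control library 2 and paeonol library 2. The sheath keratins Krt72 and Krt74 do not follow this pattern, and Krt28 follows it only in part.

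The number of KAP genes with any count varied as widely within groups as between them. It was 45, 45 and 19 of 58 in controls, 13, 21 and 27 with MC903, and 11, 29 and 42 with paeonol. Control library 3 lay within the MC903 range and paeonol library 1 below it. Of the 50 KAPs with a count in a control, 17 had none in any MC903 library and 6 had none in any paeonol library. Leaving out Krtap3-1, Krtap3-2, Krtap3-3 and Krtap13, the summed level of the other 54 KAPs was 18.9, 33.1 and 2.81 CPM in controls, 3.31, 3.72 and 4.45 CPM with MC903 and 2.67, 8.21 and 20.6 CPM with paeonol.

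The ultra-high-sulfur KAPs, which are made late in the forming cuticle and cortex, were the class with the lowest MC903 levels. Their sum over 21 genes was 6.31, 18.9 and 1.47 CPM in controls, 0.352, 0.591 and 0.944 CPM with MC903, and 0.194, 3.80 and 2.88 CPM with paeonol. No MC903 library reached the lowest control, while the paeonol libraries spanned both ranges. Of the 8 tested, 5 fell with MC903 (Krtap5-5, Krtap10-4, Krtap10-10, Krtap17-1 and Krtap28-13), beside 23.8% of all genes called lower. Of these, Krtap5-5, Krtap10-4 and Krtap17-1 were at 0 in every MC903 library, and Krtap10-10 and Krtap28-13 held at most 4 counts in any. All 5 passed the filter only through the other groups, so setting them beside 23.8% is no free test. The median log2 change was -5.62, a value that rests on genes at or near 0.

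Krtap10-10 read 1.09, 2.02 and 0.304 CPM in controls, 0, 0.0370 and 0 CPM with MC903, and 0.141, 0.277 and 0.307 CPM with paeonol. Its ratio of MC903 to control was 0.0108, with an upper 95% counting bound of 0.0838 (log2 change -6.28 ± 1.07, edgeR adjusted p = 0.000528), and the call held without any single library. It was higher with paeonol than with MC903 (log2 4.05 ± 1.11, edgeR adjusted p = 0.0167), a call that ended without MC903 library 1 (adjusted p = 0.0517) or 3 (0.0578). Against control it was lower with MC903 and paeonol (log2 -2.23 ± 0.78, edgeR adjusted p = 0.0483), which was lost in 5 of 9 runs that left out 1 library (up to 0.286). Its transcript shares 44.1% of its 50-base stretches with other genes and overlaps Gm2696 on the same strand, which had 24, 69 and 8 counts in controls, none with MC903 and 2, 2 and 4 with paeonol, so the counts of the pair cannot be separated with certainty.

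Several called KAPs were at 0 in all MC903 libraries, so their fold is a lower bound set against 12 counts per library. Krtap17-1, which read 0.704, 3.35 and 0.456 CPM in controls, was at least 6.68-fold lower (edgeR adjusted p = 0.0186). Krtap16-1 was at least 5.15-fold lower (adjusted p = 0.025), Krtap10-4 at least 3.71-fold (0.0102), Krtap12-1 at least 2.79-fold (0.0174) and Krtap5-5 at least 2.76-fold (0.0478). For each of these 5 genes control library 2 was the highest library, at 1.51 to 3.35 CPM. Without it the bounds were 2.58-fold for Krtap17-1, 1.89-fold for Krtap16-1 and 1.51-fold for Krtap10-4, and the control means of Krtap12-1 (0.186 CPM) and Krtap5-5 (0.128 CPM) lay under the floor of 0.225 CPM, which leaves no fold. The calls for Krtap17-1 and Krtap10-4 held without any single library, that for Krtap12-1 ended only without control library 2 (adjusted p = 0.0606), and those for Krtap16-1 and Krtap5-5 ended in 4 and 6 of 9 such runs (adjusted p up to 0.0619 and 0.135). With no filter on low counts the calls for Krtap17-1 (0.0535), Krtap16-1 (0.0698) and Krtap5-5 (0.0901) ended, and that for Krtap5-5 also ended by DESeq2 (0.0509) and with the library number as a block (0.104). Each was back above 0 in paeonol libraries 2 and 3 and at 0 in paeonol library 1, and edgeR called none between paeonol and MC903, where DESeq2 called Krtap17-1 (adjusted p = 0.00975), Krtap16-1 (0.0102), Krtap10-4 (0.00803) and Krtap12-1 (0.00774) higher with paeonol. By edgeR, calls were made for Krtap17-1 (adjusted p = 0.0302) and Krtap16-1 (0.0338) without control library 2, these 2 with Krtap10-4 and Krtap12-1 without paeonol library 1 (0.012 to 0.0329), and for Krtap16-1 with the library number as a replicate block (0.0137).

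The high-sulfur class had 13 tested genes, of which Krtap3-2, Krtap12-1, Krtap16-1 and Krtap26-1 fell with MC903, a share not far from the 23.8% of all genes called lower. Krtap26-1 read 0.752, 2.40 and 0.169 CPM in controls, 0, 0 and 0.0726 CPM with MC903 and 0, 0.590 and 0.748 CPM with paeonol (ratio of MC903 to control 0.0219, 95% counting interval 0.000555 to 0.13; edgeR adjusted p = 0.0277, lost in 4 of 9 runs that left out 1 library, up to 0.0945). Krtap28-13 of the ultra-high-sulfur class had a ratio of 0.0287 and an adjusted p of 0.0494, which was lost in 7 of the 9 runs (up to 0.192). With no filter on low counts the calls for Krtap26-1 (adjusted p = 0.0621) and Krtap28-13 (0.101) ended. That for Krtap28-13 also ended by DESeq2 (0.0514) and with the library number as a block (0.0708).

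The high glycine-tyrosine KAPs of the cortex showed 0 calls with edgeR; at an unadjusted p under 0.05 and by DESeq2, 1 was higher with MC903 and paeonol than in controls and 0 were called in the other comparisons. Of 15 genes 4 were tested, with a median log2 change of -0.32 with MC903, and their summed level was 4.83, 2.61 and 0.152 CPM in controls, 2.06, 1.68 and 2.11 CPM with MC903 and 1.61, 1.01 and 7.98 CPM with paeonol. The groups overlapped. The most abundant, Krtap6-2, read 0.592, 1.00 and 0.0845 CPM in controls, 1.16, 0.924 and 0.672 CPM with MC903 and 1.06, 0.277 and 4.26 CPM with paeonol. Krtap21-1 read at most 0.394 CPM in controls and between 0.277 and 0.822 CPM with MC903 (log2 1.77 ± 1.05, edgeR adjusted p = 0.199).

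**Figure D3:**
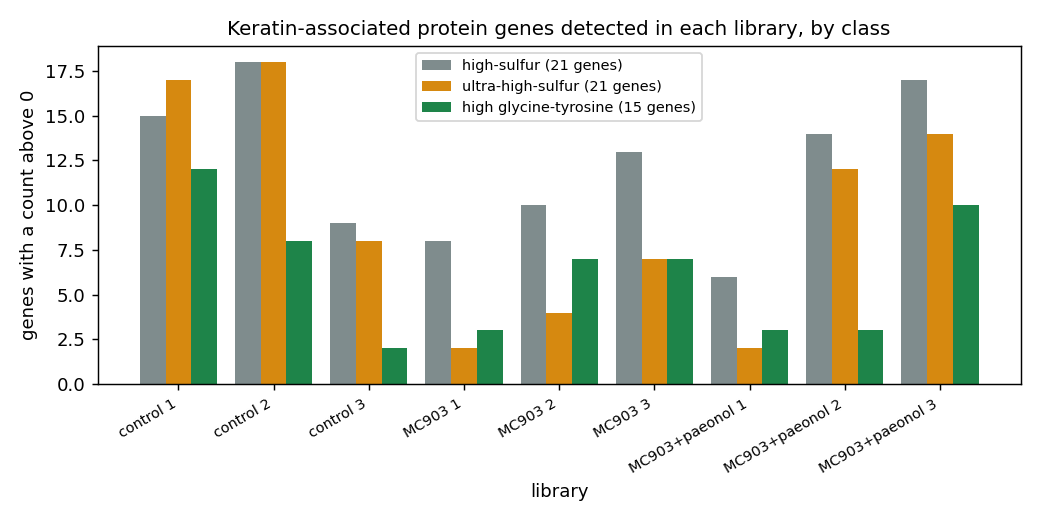
Number of KAP genes with a count above 0 in each library, as bars for the 3 composition classes (21, 21 and 15 genes). Control libraries 1 and 2 and paeonol libraries 2 and 3 hold the most ultra-high-sulfur genes, and MC903 library 1 and paeonol library 1 the fewest.

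The Krtap3 family and Krtap13 had the highest mean CPM of the KAPs. These 4 high-sulfur genes held 34.7% to 76.5% of the summed KAP level in control libraries, 77.4% to 90.4% with MC903 and 77.3% to 93.3% with paeonol. Krtap3-1 (chr11:99566027-99566630) read 0.544, 1.77 and 0 CPM in controls, 11.2, 5.53 and 5.74 CPM with MC903 and 10.5, 9.28 and 36.7 CPM with paeonol. All treated libraries lay above all controls. Its log2 change was 3.27 ± 1.13 with MC903, not called by edgeR (adjusted p = 0.0524) and called by DESeq2 (adjusted p = 0.043), by edgeR among genes with a mean CPM of at least 1 (0.0426) and with counts divided by 4 (0.0302), and without control library 2 (0.0305). It was 4.60 ± 1.17 with MC903 and paeonol against control (adjusted p = 0.0255), the latter lost without control library 1 (0.0834) or paeonol library 3 (0.0778).

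Unlike Krtap3-1, whose higher values with MC903 were not called by edgeR, its neighbour Krtap3-2 (chr11:99555823-99556853) was called lower. It read 19.0, 11.2 and 6.79 CPM in controls, 5.99, 3.62 and 4.36 CPM with MC903 and 10.99, 10.6 and 22.3 CPM with paeonol. The MC903 libraries were the lowest, and the paeonol libraries overlapped the controls. The log2 change was -1.41 ± 0.44 with MC903 (edgeR adjusted p = 0.0298) and 1.65 ± 0.44 with paeonol against MC903 (adjusted p = 0.0242). The first call ended without control library 1 (adjusted p = 0.0795) or 2 (0.0572) or MC903 library 2 (0.1) or 3 (0.0934), and the second without MC903 library 2 (0.0878) or 3 (0.087) or paeonol library 3 (0.0536). With no filter on low counts both calls ended (adjusted p = 0.0685 and 0.0572). These calls, and the place of the MC903 libraries as the lowest, rest on the uncertain split of counts between Krtap3-2 and Krtap3-3.

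Krtap3-3 (chr11:99550130-99550865), whose coding sequence is the same as that of Krtap3-2, read 4.13, 3.66 and 2.27 CPM in controls, 9.01, 4.62 and 3.30 CPM with MC903 and 11.02, 7.08 and 34.7 CPM with paeonol. Control and MC903 libraries overlapped (log2 0.75 ± 0.66, edgeR adjusted p = 0.402), and all paeonol libraries lay above all controls (log2 2.39 ± 0.68, adjusted p = 0.0341, lost in 4 of 9 runs that left out 1 library, up to 0.115). Krtap13 read 0.0640, 0.984 and 0.0676 CPM in controls, 5.07, 2.70 and 1.83 CPM with MC903 and 4.80, 1.01 and 15.7 CPM with paeonol. By edgeR it was not called against control with MC903 (log2 3.10 ± 1.33, adjusted p = 0.0998) or with MC903 and paeonol (4.26 ± 1.36, adjusted p = 0.0549). DESeq2 called it in both (adjusted p = 0.0349 and 0.00313), and edgeR called the second among genes with a mean CPM of at least 1 (0.0422) and with counts divided by 4 (0.0361). Without control library 2 edgeR called both (0.03 and 0.0266), and without paeonol library 2 the second (0.0315). Paeonol library 3 was the highest of all 9 libraries for each of these 4 genes, as it was for Krt36 and Krt84.

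**Figure D4:**
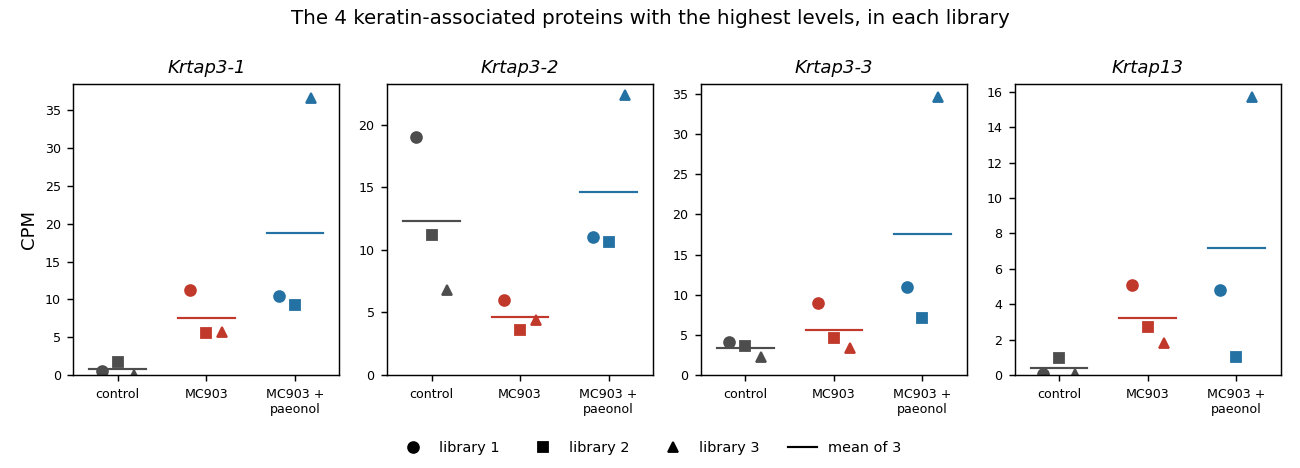
CPM of Krtap3-1, Krtap3-2, Krtap3-3 and Krtap13 in each library (points, linear axes that start at 0) with the mean of each group of 3 (line). Krtap3-1 is higher in all treated libraries than in controls, Krtap3-2 is lowest with MC903, and paeonol library 3 is the highest library in every panel.

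Genes that work with hair keratins were read beside them. Of 15 tested hair shaft and root sheath proteins, 5 rose with MC903 and 2 fell, close to the 46.8% of all genes called, and the median log2 change of the list was -0.77. Those that rose were Tchh, Padi3, Prr9, Tgm3 and Lgals7. Those that fell were Padi1, another deiminase (log2 -1.69, edgeR adjusted p = 0.00164), and Gsdma3, a gasdermin (log2 -1.73, adjusted p = 0.0105). Tchh encodes trichohyalin, which fills the cells of the inner root sheath and is also found in other hard epithelia. It read 11.1, 13.9 and 8.20 CPM in controls, 686, 630 and 756 CPM with MC903, and 367, 617 and 1262 CPM with paeonol, so that treated libraries lay far above controls (log2 5.97, edgeR adjusted p = 0.000145). Padi3, the enzyme that deiminates trichohyalin, read 0.768, 1.02 and 0.558 CPM in controls, 17.7, 16.7 and 20.02 CPM with MC903 and 1.48, 3.58 and 5.68 CPM with paeonol. Like Krt75, it was higher with MC903 (log2 4.53, adjusted p = 4.19e-05) and lower with paeonol than with MC903 (log2 -2.34, adjusted p = 0.00235), with the 3 groups apart. Prr9 read 0.672, 3.12 and 0.575 CPM in controls, 10.5, 8.67 and 13.0 CPM with MC903 and 8.90, 8.56 and 28.9 CPM with paeonol (log2 2.88 with MC903, adjusted p = 0.0225, lost without control library 1 at 0.0706 or 3 at 0.0659 or MC903 library 3 at 0.0599). The transglutaminase gene Tgm3 rose by 2.00 and Lgals7 by 1.52 on the log2 scale with MC903 (edgeR adjusted p = 4.87e-07 and 8.65e-08), and both were lower with paeonol than with MC903 (log2 -0.47 and -0.44). In that comparison 5 genes of the list were called higher and 3 lower, beside 15.3% and 14.3% of all genes, with a median log2 difference of 0.88. The 3 lower were Padi3, Tgm3 and Lgals7, and Padi1 was among the higher (log2 1.65, edgeR adjusted p = 0.00362).

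Of 22 tested follicle transcription factors and signals, 7 rose and 9 fell with MC903, beside 23% and 23.8% of all genes. Hoxc13, a transcription factor that acts on hair keratin promoters, read 6.11, 4.23 and 3.48 CPM in controls, 39.4, 46.1 and 53.9 CPM with MC903 and 18.5, 25.9 and 42.3 CPM with paeonol (log2 3.33 with MC903, edgeR adjusted p = 0.000126). Foxn1 and Hr, whose loss leaves mice hairless, rose by 1.07 and 1.52 on the log2 scale (adjusted p = 9.73e-05 and 3.27e-07). Sox21, a regulator of the shaft cuticle, fell with MC903 (log2 -1.63, edgeR adjusted p = 3.98e-07) and with paeonol was higher than with MC903 by a log2 difference of 1.74 (adjusted p = 9.94e-07), the same directions as Krt32. Gata3, which specifies the inner root sheath, read 78.5, 62.2 and 73.8 CPM in controls, 23.5, 25.6 and 27.2 CPM with MC903 and 71.8, 73.6 and 70.8 CPM with paeonol. Shh, the signal of growing follicle matrix, had at most 0.0656 CPM in control and MC903 libraries and 0.194, 0.609 and 0 CPM in the paeonol libraries; it was not tested. Tchh, Padi3, Prr9, Hoxc13, Foxn1, Gata3, Shh, Padi1 and Gsdma3 were picked for mention after their values were seen.

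**Figure D5:**
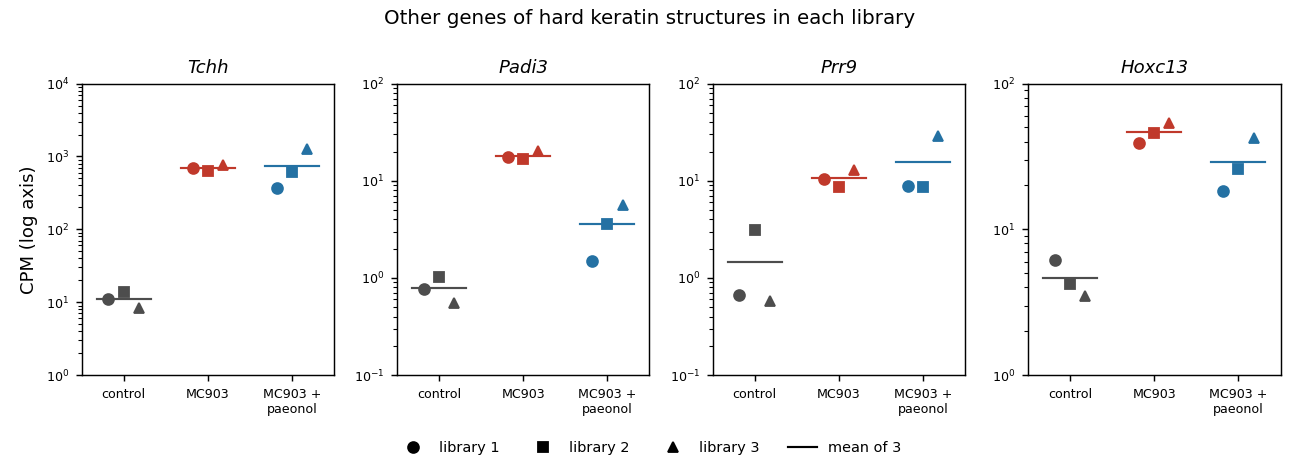
CPM of Tchh, Padi3, Prr9 and Hoxc13 in each library (points, log axes) with the mean of each group of 3 (line). All treated libraries lie above all controls for these 4 genes, and Padi3 is lower in all paeonol libraries than in all MC903 libraries.

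Markers of other skin and ear structures moved in the same comparisons, and their counts stand beside 23% of all genes higher and 23.8% lower with MC903. With MC903, 11 of 13 tested follicle stem cell genes, 11 of 14 sebaceous gland genes, 7 of 15 dermal papilla genes, 10 of 10 skeletal muscle genes, 7 of 9 ear cartilage genes and 8 of 8 adipocyte genes fell, and 12 of 12 cell cycle genes rose. Only in the dermal papilla list did other genes rise, 2 in number. The summed sebaceous gland level was 7030 to 9140 CPM in controls, 914 to 1870 CPM with MC903 and 4090 to 5550 CPM with paeonol, and the summed follicle stem cell level was 4340 to 5160, 1440 to 1570 and 2860 to 3310 CPM. Cell cycle genes summed to 568 to 588 CPM in controls, 1020 to 1050 CPM with MC903 and 1020 to 1250 CPM with paeonol. In the interfollicular epidermis list 3 of 12 rose and 4 fell with MC903, near those shares, and 9 were higher and 1 was lower with paeonol than with MC903, beside 15.3% and 14.3% of all genes; of 11 melanocyte pigment genes 4 rose and 1 fell with MC903. The part of these shifts in the keratin and KAP values was not tested.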

How the data were processed

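Messenger RNA of mouse ears was measured in 9 libraries; groups and replicate numbers came from the labels. The kit was stranded, by dUTP labelling of the second strand (labels' protocols). As tools, the submitters' processing notes name HISAT2 2.0.4, StringTie 1.3.4d and cutadapt, and as build GRCm38; no source used here names the annotation or how strand entered the counting. The deposited file holds whole numbers per gene, taken here as estimated counts, with low values piling up at multiples of 4; the floor was therefore 12 counts per library, and intervals cover counting error only. Gene IDs were joined to GENCODE M21 symbols (55141 of 55401). Genes were filtered with filterByExpr (minimum count 10, minimum total 15) and tested with edgeR 4.0.16 (trimmed mean of M-values, robust quasi-likelihood fit over all 9 libraries, 1 coefficient per group, Benjamini-Hochberg over 21925 genes, two-sided), in R 4.3.3; the fit was tested on simulated data. The common biological coefficient of variation was 0.214. No protein table was at hand, so KAP classes use codons of GENCODE coding sequences.

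Named genes were every hair keratin with a count, the 12 KAPs of highest mean CPM and up to 5 called KAPs of smallest p per comparison, and, where a result touches them, the 2 genes of smallest p in each other list; other names were added after values were seen. Members and lists were chosen with earlier results of these data known. Same-numbered libraries did not deviate together (correlations -0.011 to 0.04), so numbers were not treated as pairs. Alternatives were DESeq2 1.42.0, other scalings, filters and fits, and leaving out each library.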

Additional observations from a re-analysis of the deposited data

How the results depend on the processing

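No called change that was recomputed altered its sign under any alternative. Of 40 called changes recomputed for the text, 19 lost their call in at least 1 run that left out a library. The 40 include genes outside the hair keratins and KAPs, of which only Prr9 lost a call. The share of calls lost was therefore higher among the hair keratins and KAPs than these pooled counts show. Called changes of Padi1 and Gsdma3 were not recomputed. Krt36 with MC903 and paeonol against control held in those runs but ended with the library number as a block (adjusted p = 0.0571). Krtap17-1 with MC903 held in them too but ended with no filter on low counts (0.0535). Against the counts given in the report (6, 3 and 4 hair keratins and 9, 2 and 3 KAPs for MC903 against control, paeonol against MC903 and paeonol against control), runs that left out 1 library gave 3 to 6, 2 to 4 and 2 to 4 hair keratins and 4 to 12, 0 to 7 and 0 to 3 KAPs. Leaving out control library 2 and paeonol library 2 together, chosen after seeing that both were high in sheath keratins and so no test of those, gave 7, 2 and 3 hair keratins and 5, 1 and 3 KAPs. For MC903 against control, KAP calls numbered 4 with no filter on low counts, 2 among genes with a mean CPM of at least 1 and 4 with counts divided by 4. For paeonol against MC903 the same settings gave 1 KAP each, as did a fit of only the 2 groups compared, and DESeq2 gave 7. DESeq2 gave 5 KAPs for paeonol against control. A replicate block, which takes the library numbers as pairs although the labels state no pairing, left 1 hair keratin and 0 KAPs called for paeonol against control, and 5 and 3 hair keratins and 7 and 3 KAPs for the other comparisons. Over 198 changes recomputed for named genes, 81 changes of sign occurred in 39 of them, each in a change that was not called. Among the changes the report gives, this touched Krt36 between paeonol and MC903 (0.03 with the replicate block, 0.3 without control library 2 and paeonol library 2, -0.95 to 0.51 without 1 library). The cause of these shifts was not tested. Most KAPs and shaft keratins lie under 1 CPM, close to the floor of 12 counts per library, where counting limits what can be called.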
